A study of Mus musculus with 22 samples.

Results

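The genes described here are 35 genes whose transcripts are known to follow androgen in prostate tissue, taken by name from a list, and 6 of them (Fkbp5, Zbtb16, Sgk1, Tsc22d3, Per1 and Klf9) are also classical targets of glucocorticoid. A gene was represented by a probe set that carried its symbol and no other, and by the one of highest mean signal where it had several. In all, 34 of the 35 genes had such a probe set, among 30142 genes named in this way on the arrays, and 32 of them were tested among 19067 genes that passed a filter on dim signals. RNA came from the epithelium of the urogenital sinus (UGS), the fetal tube from which the prostate buds grow in males, of C57BL/6J mouse fetuses at embryonic stage E16.75. There were 6 male Sox9 knockouts, 6 male controls, 5 female knockouts and 5 female controls, hybridised to 22 Affymetrix whole-transcript arrays.

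Knockouts of both sexes were ShhCre/+; Sox9fl/fl, and their littermate controls of both sexes were Shh+/+; Sox9+/fl. All groups therefore carried at least 1 floxed Sox9 allele, and the controls had no Cre. Cre was driven from the Shh locus, so every knockout and no control carried the Cre allele and only 1 intact copy of Shh, and loss of Sox9 cannot be told apart from these. Mesenchyme was peeled off under a microscope after trypsin and collagenase treatment, and the epithelium of bladder and urethra was discarded. The labels call the arrays biological replicates but give no litter and do not say whether an array held 1 fetus or a pool, so the p-values below measure the spread between these arrays. In such bulk RNA, fewer cells of a type and less RNA per cell cannot be told apart. Between males and females, sex chromosomes, hormones and any other difference of the sexes cannot be told apart either.

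Androgen enters a cell, binds the androgen receptor, and the receptor then moves to the nucleus and binds DNA at short repeated motifs near its target genes. In the fetal sinus the receptor acts first in the mesenchyme, which signals to the epithelium to form buds, while the epithelium responds directly later on. The glucocorticoid receptor recognises nearly the same DNA motif, and a group of genes, among them Fkbp5, Sgk1, Zbtb16 and Tsc22d3, is induced by either hormone. The remaining genes are known mainly from adult prostate and prostate cancer cells, where they serve secretion, transport, lipid and polyamine metabolism and feedback on the receptor.

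The sex and genotype labels were checked first. Xist was lower and Eif2s3y, Kdm5d and Uty were higher in males than in females in both genotypes, and the groups labelled male and female did not mix. Sox9 was lower in knockouts by a log2 fold change of -1.07 in males (limma, adjusted p = 1.06e-07), averaged 7.89 ± 0.09 log2 signal in female knockouts against 8.89 ± 0.11 in female controls (adjusted p = 2.31e-06), and Shh was lower by -0.45 and -0.56 (adjusted p = 0.00879 and 0.0129). The mean of 11 genes that mark the sinus epithelium, Shh among them, lay between 11.03 and 11.16 log2 signal on all 22 arrays. Array medians lay between 5.11 and 5.27, and correlations of arrays ran between 0.985 and 0.995 within groups. Male control 6 stood apart in the mean of 9 mesenchyme markers, at 7.92 log2 signal, where every other array lay at 7.16 or below, and in that of 10 smooth muscle markers, at 7.29, where every other array lay at 6.40 or below. Male knockout 5 and female knockout 5 were the highest of their groups in the mean of 15 immediate early genes, at 7.69 and 7.81. Without these 3 arrays together, an alternative chosen after seeing the data, the calls of Klf9, Rhou, Dbi and Sat1 between the sexes in knockouts and of Dbi in controls were lost, as given beside those genes.

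The receptor motif was looked for in the promoters of the genes, and 4 stretches of 250 bases before a transcription start are shown because they belong to the member with the largest difference between the sexes (Sgk1), to further members higher in males (Abcc4 and Fkbp5) and to the classical androgen target of mouse prostate (Pbsn). The sequences are those of RefSeq on GRCm38.p6, printed 5′ to 3′ on the strand of the gene, and the capitals mark the hexamer AGAACA or its reverse complement.
Sgk1, chr10:21993640-21993889, plus strand: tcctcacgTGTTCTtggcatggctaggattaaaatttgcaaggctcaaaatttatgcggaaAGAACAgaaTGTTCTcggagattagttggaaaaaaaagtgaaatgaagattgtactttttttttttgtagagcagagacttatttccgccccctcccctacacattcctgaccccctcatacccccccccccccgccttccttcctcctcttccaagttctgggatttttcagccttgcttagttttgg
Abcc4, chr14:118676932-118677181, minus strand: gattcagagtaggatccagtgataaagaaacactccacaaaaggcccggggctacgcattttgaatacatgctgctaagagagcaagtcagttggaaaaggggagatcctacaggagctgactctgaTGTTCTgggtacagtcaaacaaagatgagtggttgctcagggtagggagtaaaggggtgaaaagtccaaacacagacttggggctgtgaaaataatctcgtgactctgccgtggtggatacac
Fkbp5, chr17:28486150-28486399, minus strand: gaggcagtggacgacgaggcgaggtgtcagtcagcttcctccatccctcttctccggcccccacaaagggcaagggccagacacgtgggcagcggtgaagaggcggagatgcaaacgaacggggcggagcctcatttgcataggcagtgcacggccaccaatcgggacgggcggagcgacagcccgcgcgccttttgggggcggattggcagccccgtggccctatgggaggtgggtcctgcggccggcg
Pbsn, chrX:77853501-77853750, minus strand: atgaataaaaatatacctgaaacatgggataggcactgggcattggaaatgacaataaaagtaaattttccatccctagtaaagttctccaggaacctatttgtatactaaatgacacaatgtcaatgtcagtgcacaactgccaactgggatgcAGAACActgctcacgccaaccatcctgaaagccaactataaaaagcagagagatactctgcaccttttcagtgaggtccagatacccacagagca
The Sgk1 stretch held 3 hexamers, and those starting 189 and 180 bases before the transcription start faced each other across a gap of 3 bases as the palindrome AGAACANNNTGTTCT, the spacing to which steroid receptor dimers are known to bind. Searched on both strands, that palindrome occurred in 3 of 32841 promoter stretches of this length (0.00913%). Of the 30 listed genes with a stretch to search, Sgk1 alone had it. The hexamer by itself was common, in 16.1% of all stretches and in 9 of the 45 (20%) that belonged to 30 of the 35 genes. Sgk1 has 6 annotated starts, of which 3 had a hexamer in this window, and the other Abcc4 start had none. For both genes the stretch shown is thus the one with the most hexamers. The promoter sequences used had no stretch for Zbtb16, Pmepa1, Maf, Cebpd and Tpd52, so these genes were not searched. A match of letters is a description and not a binding site, and the window leaves out the distant enhancers through which these genes are known to be controlled.

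Between males and females, some of these genes were higher and others lower in either genotype. In knockouts 13 of the 32 genes tested (40.6%) passed an adjusted p of 0.05, with Sgk1, Zbtb16, Fkbp5, Abcc4, Stk39, Dbi, Rhou and Klf9 higher in males and Pmepa1, Steap2, Maf, Sat1 and Zmiz1 lower. Among all 19067 genes 7.2% passed in that comparison, 3.67% as higher and 3.53% as lower. In controls 10 of the 32 (31.2%) passed, the same genes without Klf9, Rhou and Sat1 and in the same directions, against 6.94% of all genes, 3.27% as higher and 3.68% as lower. At an unadjusted limma p under 0.05 there were 17 of the 32 (53.1%) in knockouts and 14 (43.8%) in controls, against 17.2% and 19.1% of all genes. The 10 are all of the control calls and 76.9% of the knockout calls, while over all genes 811 were called in both comparisons with the same direction, 61.3% of the control calls and 59.1% of the knockout calls. The comparisons in knockouts and in controls share no array, but the fit gives them 1 estimate of the spread. The median log2 fold change of the 32 genes was near 0 in both, at -0.0086 in knockouts and 0.051 in controls, against -0.012 and -0.013 for all genes. Their median size was 0.173 in knockouts and 0.141 in controls, against 0.061 and 0.0723 for all genes. Male and female arrays did not overlap for 11 of the 32 genes in knockouts (34.4%, against 5.83% of all genes) and for 7 in controls (21.9%, against 5.64%).

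Among the 6 genes shared with the glucocorticoid response, 4 were called higher in male knockouts and 3 in male controls, and 0 were called lower. The shares were 66.7% and 50%, and those of the 26 other genes tested were 34.6% and 26.9%, with calls in both directions. The median log2 fold change of the 6 was 0.49 in knockouts and 0.3 in controls.

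Sgk1, a kinase induced by serum, glucocorticoid and androgen that raises sodium transport, differed most. Its log2 signal was 6.77 at the lowest, 7.41 at the median and 7.90 at the highest in 6 male knockouts, against 6.13, 6.01, 6.04, 6.00 and 6.07 in female knockouts. It was 6.84, 7.40 and 7.57 at the lowest, median and highest in 6 male controls, against 6.17, 6.14, 6.09, 5.99 and 6.21 in female controls. Every male array thus lay above every female array of either genotype, and the male arrays were spread wider than the female ones, with an SD of 0.39 in male knockouts and 0.28 in male controls against 0.05 in female knockouts and 0.09 in female controls. The log2 fold change was 1.37 ± 0.14 (SE) in knockouts, or 2.58-fold (limma, adjusted p = 8.01e-07), and 1.20 ± 0.14 in controls, or 2.30-fold (adjusted p = 4.89e-06). Counted from the most male-biased gene, it ranked 18 among the 19067 genes in knockouts and 19 in controls.

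Zbtb16, a zinc finger repressor of transcription also called PLZF, followed. Male knockouts lay at 6.61, 7.25 and 7.47 log2 signal (lowest, median and highest), against 6.33, 6.12, 6.15, 5.91 and 6.15 in female knockouts. Male controls lay at 6.69, 6.88 and 7.11, against 5.96, 6.14, 6.26, 6.09 and 6.05 in female controls. No male array reached down to a female one in either genotype. In limma the log2 fold change was 1.05 ± 0.11 (SE) in knockouts (2.07-fold, adjusted p = 1.24e-06) and 0.80 ± 0.11 in controls (1.74-fold, adjusted p = 5.03e-05).

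Fkbp5, a co-chaperone that sits on steroid receptors with Hsp90 and is itself induced by them, was also higher in males of both genotypes. Its log2 signal in male knockouts was 6.76, 6.98 and 7.38 (lowest, median and highest), against 6.22, 6.44, 6.30, 6.17 and 6.33 in female knockouts. In male controls it was 6.65, 6.77 and 6.88, against 6.33, 6.24, 6.47, 6.27 and 6.26 in female controls. The sexes were again separate in each genotype. The log2 fold change was 0.73 ± 0.08 (SE) in knockouts (1.65-fold, adjusted p = 1.12e-06) and 0.46 ± 0.08 in controls (1.37-fold, adjusted p = 4e-04).

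The other 3 shared genes did not behave in this way. Klf9, a Krüppel-like transcription factor, averaged 6.97 ± 0.16 in male knockouts and 6.71 ± 0.11 in female knockouts (SD, n = 6 and 5), a log2 fold change of 0.26 with an adjusted p of 0.0361 in limma. Its arrays overlapped between the sexes, at 6.75 to 7.20 in male knockouts and 6.59 to 6.90 in female knockouts, and the call was lost when any one of 7 arrays was left out, and without the 3 arrays that stood apart (adjusted p = 0.127). In controls Klf9 had a log2 fold change of 0.14 (adjusted p = 0.314), with an average of 6.94 ± 0.07 in males and 6.79 ± 0.16 in females. Tsc22d3, the X-linked gene of the leucine zipper protein GILZ and one of the most used reporters of glucocorticoid action, averaged 6.51 in male knockouts and 6.56 in female knockouts, and 6.45 in male controls and 6.57 in female controls. The log2 fold changes of Tsc22d3 were -0.06 (95% interval -0.16 to 0.05) in knockouts and -0.12 (-0.23 to -0.01) in controls, with adjusted p of 0.707 and 0.189. Per1, a repressor of the circadian clock that steroid hormones induce acutely, had log2 fold changes of -0.07 (-0.24 to 0.11) and -0.12 (-0.30 to 0.05), with adjusted p of 0.81 and 0.453. Both intervals of either gene lie below the fold changes of Sgk1, Zbtb16 and Fkbp5.

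**Figure D1:**
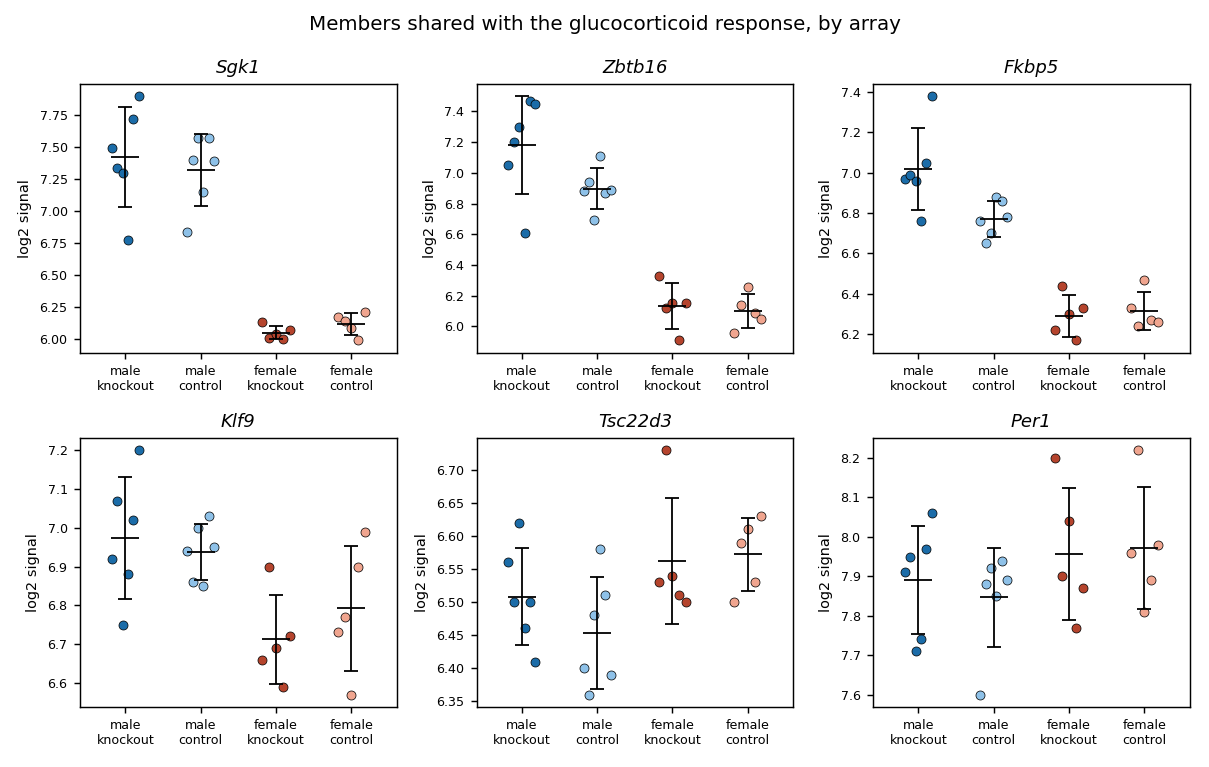
Log2 signal on each of the 22 arrays for the 6 genes shared with the glucocorticoid response, by group, with points for arrays, a dash for the group mean and bars for the SD. For Sgk1, Zbtb16 and Fkbp5 all male arrays lie above all female arrays of the same genotype, while Klf9, Tsc22d3 and Per1 overlap between the sexes.

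Of the genes not shared with glucocorticoid, Abcc4 was the most different of those higher in males. It encodes a pump that exports cyclic nucleotides, prostaglandins and conjugated steroids and is known as an androgen-induced gene of prostate. Its log2 signal was 8.37, 8.46 and 8.64 (lowest, median and highest) in male knockouts, against 8.06, 7.86, 7.80, 8.07 and 8.18 in female knockouts. Male controls had 8.22, 8.39 and 8.49, against 8.09, 7.88, 8.08, 7.93 and 7.83 in female controls. The sexes did not overlap in either genotype. The log2 fold change was 0.47 ± 0.07 (SE) in knockouts (1.39-fold, adjusted p = 7.87e-05) and 0.40 ± 0.07 in controls (1.32-fold, adjusted p = 5.67e-04).

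Stk39, the kinase SPAK that switches cation-chloride transporters, also separated the sexes. It lay between 8.28 and 8.53 in male knockouts, against 7.93 to 8.22 in female knockouts, and between 8.20 and 8.48 in male controls, against 7.97 to 8.19 in female controls. Its log2 fold change was 0.33 ± 0.06 (SE) in knockouts (adjusted p = 0.00132) and 0.28 ± 0.06 in controls (adjusted p = 0.00597). Dbi, the acyl-CoA binding protein, had small differences of 0.16 ± 0.04 in both genotypes, with adjusted p of 0.0217 in knockouts and 0.0269 in controls. Its arrays stayed apart in knockouts, at 8.56 to 8.69 in males and 8.40 to 8.55 in females, and overlapped in controls, at 8.53 to 8.69 in males and 8.37 to 8.54 in females. The call of Dbi was lost without any one of 3 arrays in knockouts and any one of 6 in controls, and without the 3 arrays that stood apart its adjusted p was 0.0561 in knockouts and 0.0838 in controls. Rhou, a small GTPase, was called in knockouts, with a log2 fold change of 0.32 ± 0.09 (adjusted p = 0.0351) and overlapping arrays, 9.13 to 9.73 in males and 9.02 to 9.35 in females, and the call was lost without any one of 7 arrays, and without the 3 that stood apart (adjusted p = 0.138). In controls its log2 fold change was 0.22 ± 0.09 (adjusted p = 0.182).

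The genes lower in males were led by Pmepa1, which is known both as an androgen-induced gene of prostate and as a target and inhibitor of TGF-beta signalling, and whose product also promotes loss of the androgen receptor protein. Its log2 signal was 8.44, 8.59 and 8.76 (lowest, median and highest) in male knockouts, against 9.28, 9.56, 9.36, 9.40 and 9.41 in female knockouts. Male controls had 8.54, 8.67 and 8.79, against 9.57, 9.52, 9.46, 9.62 and 9.75 in female controls. The gap between the highest male and the lowest female array was wider than the range of any of the 4 groups. The log2 fold change was -0.81 ± 0.06 (SE) in knockouts, or 1.75-fold lower (adjusted p = 1.06e-08), and -0.93 ± 0.06 in controls, or 1.91-fold lower (adjusted p = 9.86e-10).

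Zmiz1, a PIAS-like protein known to enhance transcription by the androgen receptor, was lower in males too. It lay between 8.79 and 9.09 in male knockouts, against 9.16, 9.19, 9.31, 9.36 and 9.28 in female knockouts, and between 8.86 and 9.08 in male controls, against 9.39, 9.42, 9.38, 9.38 and 9.36 in female controls. No male array overlapped a female one. Its log2 fold change was -0.28 ± 0.05 (SE) in knockouts (adjusted p = 0.00107) and -0.43 ± 0.05 in controls (adjusted p = 8.16e-06).

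Steap2, a metalloreductase of the cell membrane and endosome, and Maf, a leucine zipper transcription factor, were lower in males in both genotypes. Steap2 had log2 fold changes of -0.43 ± 0.07 (SE) in knockouts (adjusted p = 1.91e-04) and -0.26 ± 0.07 in controls (adjusted p = 0.0231). Maf had -0.37 ± 0.06 in knockouts (adjusted p = 1.21e-04) and -0.23 ± 0.06 in controls (adjusted p = 0.0125). In controls the call of Steap2 was lost without any one of 3 arrays and under median centring, and that of Maf under quantile normalization and median centring. Both genes were separate between the sexes in knockouts, Steap2 at 6.80 to 7.08 in males and 7.25 to 7.56 in females and Maf at 6.00 to 6.19 in males and 6.38 to 6.61 in females. Both overlapped in controls, where of the male arrays only male control 6, the one high in mesenchyme markers, reached the female range of Maf, at 6.47 against a lowest female control of 6.41, and the part of this in the result was not tested. Whether the sex differences themselves differ between genotypes was tested as the difference of the knockout effect between the sexes, which was -0.17 for Steap2 and -0.13 for Maf, with an adjusted p of 0.997 for both. Sat1, the X-linked acetylase that starts the breakdown of spermidine and spermine, was lower in male knockouts, at 7.05 to 7.36 against 7.43 to 7.70 in female knockouts, by a log2 fold change of -0.31 ± 0.08 (adjusted p = 0.0173, and 0.0583 without the 3 arrays that stood apart). In controls it had -0.16 ± 0.08 (adjusted p = 0.297), with 7.22 to 7.77 in males and 7.55 to 7.82 in females.

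**Figure D2:**
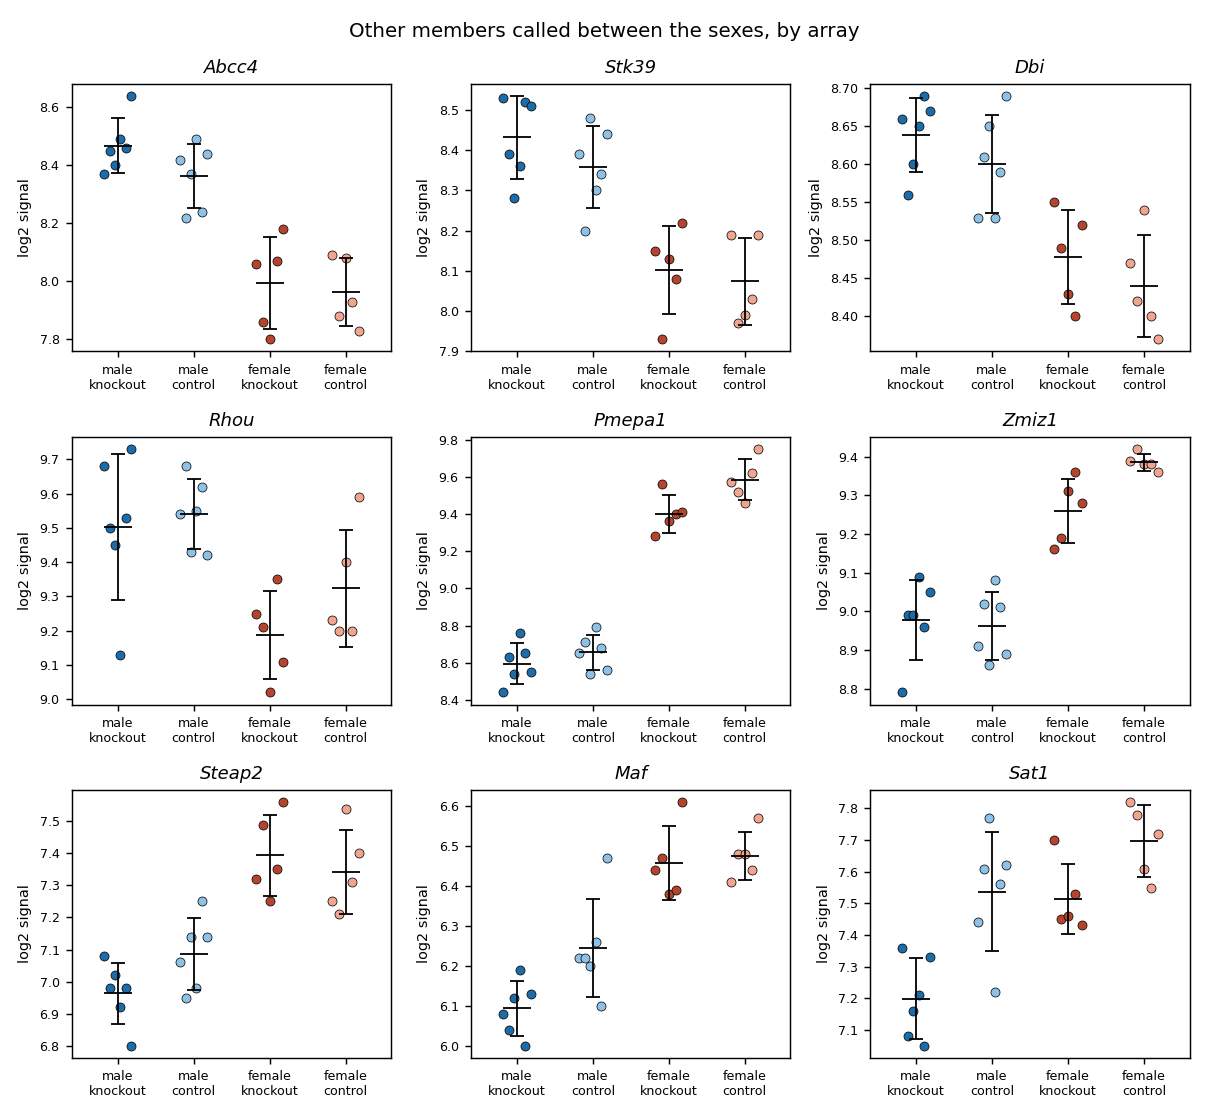
Log2 signal on each array for the 9 genes outside the glucocorticoid-shared group that were called between the sexes in at least 1 genotype, with points for arrays, a dash for the group mean and bars for the SD. Abcc4 and Stk39 lie higher in males, and Pmepa1 and Zmiz1 lower, with no overlap of the sexes in either genotype.

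The other 19 genes tested passed in neither genotype, with log2 fold changes between -0.28 and 0.26 in knockouts. Several are textbook markers of androgen action in prostate. Tmprss2, a membrane serine protease, had -0.15 in knockouts and 0.06 in controls (adjusted p = 0.328 and 0.689), and Slc45a3, the sugar transporter prostein, had 0.17 and 0.11 (0.383 and 0.576). The secretory-cell factor Spdef had -0.01 and -0.10 (0.969 and 0.41), and Camkk2, a kinase upstream of AMPK, had 0.05 and 0.13 (0.829 and 0.309). The nearest to the threshold were Ell2, an elongation factor of RNA polymerase, at 0.26 in knockouts (adjusted p = 0.103), and Errfi1, an inhibitor of the EGF receptor, at 0.22 in controls (adjusted p = 0.0637). Odc1, which makes putrescine as the first step of polyamine synthesis, had -0.28 in knockouts (adjusted p = 0.12) and 0.03 in controls. Male knockout 4 had 9.60 log2 signal of Odc1, where the next highest male knockout had 9.23. Without that array Odc1 passed between the sexes in knockouts (limma, adjusted p = 0.012). The sterol genes Hmgcs1 and Idi1 had 0.14 and 0.00 in knockouts and 0.12 and 0.17 in controls. The remaining genes, Azgp1, Cebpd, Gnmt, Herc3, Homer2, Map7, Steap4 and Tpd52, had log2 fold changes between -0.22 and 0.07 over both genotypes. Pbsn, the secreted protein probasin of adult mouse prostate, and Inpp4b, a lipid phosphatase, lay below the median of all transcript clusters on all 22 arrays and were not tested. Pbsn averaged between 3.79 and 3.84 log2 signal over the 4 groups, and Inpp4b between 4.17 and 4.23. The median over 23 probe sets that serve as background controls was 3.19, and the brightest of these averaged 6.69. The female arrays of Sgk1, Zbtb16 and Fkbp5 and all arrays of Maf, Slc45a3, Steap4, Gnmt, Azgp1 and Cebpd did not reach that level. Neither did those of Tsc22d3, apart from female knockout 2 (6.73). Some arrays of other genes lay below it too, among them males at 6.65 for Fkbp5 and 6.61 for Zbtb16. Acsl3, which activates long fatty acids, stood only on a probe set with several symbols and has no value here.

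**Figure D3:**
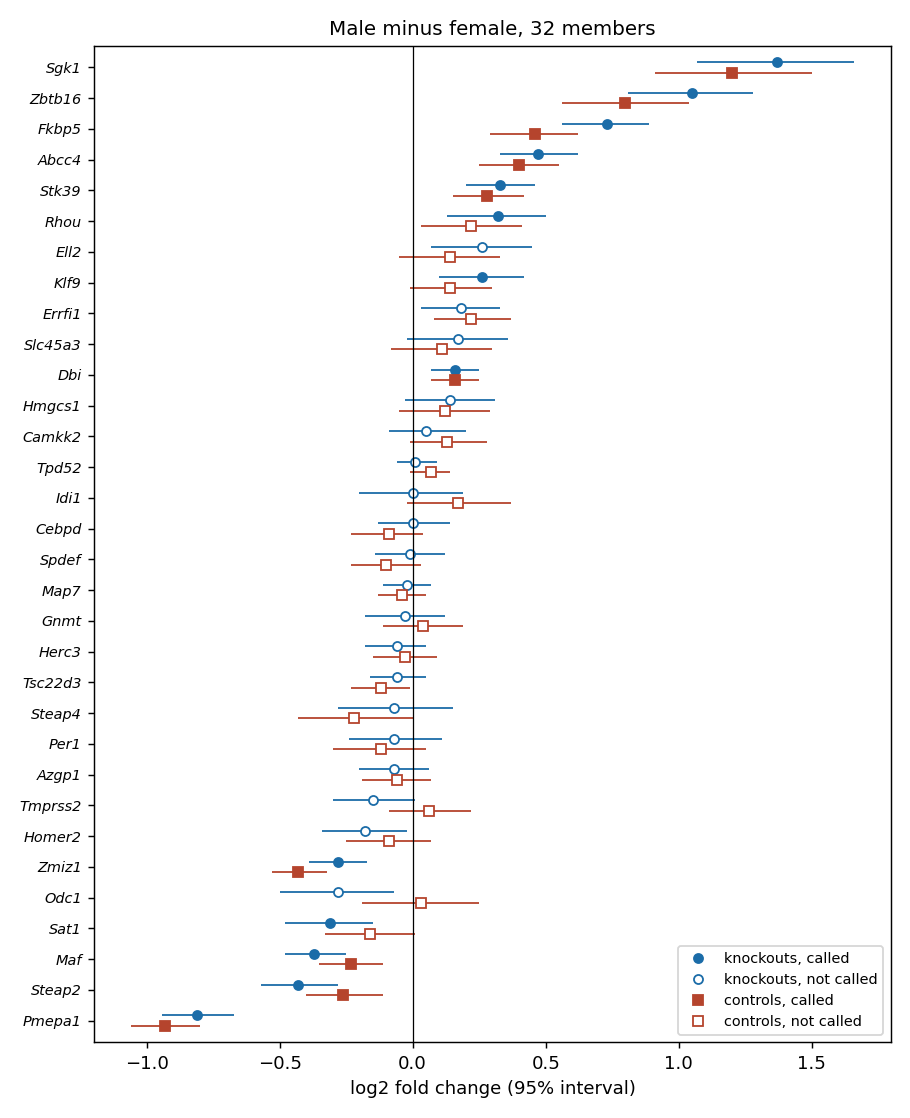
Log2 fold change of males over females with its 95% interval for the 32 genes tested, in knockouts (circles) and controls (squares), with filled marks for an adjusted p under 0.05. Sgk1 (1.37 in knockouts and 1.20 in controls) and Zbtb16 (1.05 and 0.80) stand at the upper end and Pmepa1 (-0.81 and -0.93) at the lower end, while most genes lie near 0.

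Markers of other cells and of tissue handling were set beside the sex differences. The mean of 9 mesenchyme markers ranged from 6.75 to 7.16 in male knockouts, against 6.90 to 7.08 in female knockouts, and from 6.79 to 7.92 in male controls, against 6.89 to 7.12 in female controls. Of the 9, Lum was higher and Gli1 lower in male knockouts, and Dcn was lower in male controls. With this mean as a covariate the same 13 genes were called in knockouts, and the same 10 and Errfi1 in controls. Immediate early genes are known to be induced by tissue digestion. Their mean over 15 genes was 7.10 to 7.69 in male knockouts, against 7.27 to 7.81 in female knockouts, and 7.15 to 7.26 in male controls, against 7.39 to 7.45 in female controls, with overlap in knockouts and without it in controls. Of the 15, Jun and Btg2 passed as lower in males in both genotypes and none passed as higher, Jun by -1.05 in knockouts and -1.04 in controls. With the immediate early mean as a covariate, an alternative chosen after seeing the data, 12 genes were called in knockouts, Rhou being lost (0.34, adjusted p = 0.0549), and 10 in controls, where Steap2 was lost (-0.20, adjusted p = 0.137) and Errfi1 was gained. Without male control 6, male knockout 5 and female knockout 5 together, 9 genes were called in knockouts and 9 in controls, all of them among those called with every array.

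The mean of 9 immune markers was 6.47 to 6.60 in male knockouts, against 6.49 to 6.87 in female knockouts, and 6.50 to 6.68 in male controls, against 6.49 to 6.64 in female controls, and 0 of the 9 were called (3 in knockouts and 0 in controls had an unadjusted limma p under 0.05), with a median log2 fold change of -0.18 in knockouts. The mean of 10 urothelium markers was 9.57 to 10.17 in male knockouts, against 9.57 to 10.20 in female knockouts, and 9.49 to 9.92 in male controls, against 9.50 to 9.89 in female controls. The medians of these means were 9.82 in male and 10.11 in female knockouts, and 9.71 in male and 9.67 in female controls. Of the 10 markers Psca, a surface protein of urothelium and prostate, was called higher in males, by 0.93 in knockouts and 0.82 in controls. Most of the list went the other way, with negative log2 fold changes for 8 of the 10 in knockouts and 7 in controls (median -0.21 and -0.03), and none was called lower. The mean of 10 smooth muscle markers was 6.00 to 6.40 in male knockouts, against 6.08 to 6.25 in female knockouts, and 6.04 to 7.29 in male controls, against 6.12 to 6.26 in female controls, and none was called. Of these 10, 9 had positive log2 fold changes in controls (median 0.17) and 4 in knockouts. Among the 11 sinus epithelium markers the keratins Krt14 and Krt18 were called lower in males, by -0.35 and -0.34 in knockouts and -0.30 and -0.28 in controls. Shh was called higher in males, by 0.58 in knockouts and 0.47 in controls. In knockouts alone Foxa1 was also called higher and Krt8 lower. The part of these lists in the sex differences was not tested.

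Between Sox9 knockouts and controls none of these genes passed the threshold. In males 0 of 32 genes passed between knockouts and controls, where 0.199% of all genes did. In females 0 of 32 passed, where 0.0315% of all genes did. Averaged over the sexes 0 of 32 passed (0.246% of all genes), and 0 of 32 passed in the test of whether the knockout effect differs between the sexes (0.00524% of all genes). At an unadjusted limma p under 0.05 there were 4 of the 32 (12.5%) in males, in females and in the average, against 6.29%, 5.47% and 7.19% of all genes, and 2 (6.25%) in the difference between the sexes, against 4.04%. The 95% intervals bound what could have been missed. They ran from -0.50 to 0.51 over all 32 genes in males and from -0.45 to 0.35 in females. A change of the size seen for Sgk1 between the sexes, the largest of the 32, thus lies outside the interval of every gene tested. Smaller changes are not excluded for every gene. A change of 0.40, as seen for Abcc4 between the sexes in controls, lies within the interval of Zbtb16 in males (0.06 to 0.51).

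Sat1 came nearest. Its log2 signal was 7.05, 7.18 and 7.36 (lowest, median and highest) in male knockouts, against 7.22, 7.58 and 7.77 in male controls, and 7.70, 7.45, 7.46, 7.53 and 7.43 in female knockouts, against 7.82, 7.78, 7.61, 7.55 and 7.72 in female controls. The knockout groups lay lower with some overlap in each sex. The log2 fold change was -0.34 ± 0.08 (SE) in males (adjusted p = 0.0916), -0.18 ± 0.09 in females (adjusted p = 0.903) and -0.26 averaged over the sexes (adjusted p = 0.0631). The average passed in 5 of the fits that left out 1 array, and in males the gene passed without male control 4, with -0.40 and an adjusted p of 0.0114.

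Fkbp5 and Zbtb16 had positive values in males that did not pass. Fkbp5 averaged 7.02 ± 0.20 in male knockouts and 6.77 ± 0.09 in male controls (SD, n = 6 each), a log2 fold change of 0.25 with an adjusted p of 0.389 in limma. In females it averaged 6.29 ± 0.10 in knockouts and 6.31 ± 0.10 in controls (SD, n = 5 each), a log2 fold change of -0.02. The difference of these effects between the sexes was 0.27 (limma, adjusted p = 0.997). Zbtb16 averaged 7.18 ± 0.32 in male knockouts and 6.90 ± 0.13 in male controls, a log2 fold change of 0.28 (limma, adjusted p = 0.66), and it had 0.04 in females. Sgk1 had 0.10 (95% interval -0.19 to 0.38) in males and -0.07 (-0.38 to 0.24) in females. Male knockout 4 was the lowest of its group in all 3 genes, and it was also the highest in the mean of 10 urothelium markers, at 10.17 against 9.85 for the next male knockout, and the part of this in the result was not tested. Without male knockout 4 the change of Zbtb16 in males was 0.40 and passed with an adjusted p of 0.041. Klf9, Tsc22d3 and Per1 had log2 fold changes of 0.04, 0.05 and 0.04 in males and -0.08, -0.01 and -0.02 in females. The median of the 6 shared genes was 0.074 in males and -0.019 in females.

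Other values between knockouts and controls were small. In males Odc1 had -0.19, the elongation factor gene Ell2 0.18 and Maf -0.15, with adjusted p of 0.825, 0.802 and 0.556 in limma. In females Pmepa1 had -0.18 and Zmiz1 -0.13 (limma, adjusted p = 0.82 and 0.88), Rhou had -0.14, and Steap4, a metalloreductase related to Steap2, had -0.23 (adjusted p = 0.903). Steap4 was the 1 gene of 32 (3.12%, against 1.4% of all genes) whose female groups did not overlap, at 6.03, 6.01, 5.99, 6.01 and 5.86 in female knockouts, against 6.06, 6.07, 6.42, 6.08 and 6.43 in female controls. In males 0 of 32 genes were without overlap, against 0.42% of all genes. Odc1 had 0.12 in females, a difference of -0.32 between the sexes (limma, adjusted p = 0.997).

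**Figure D4:**
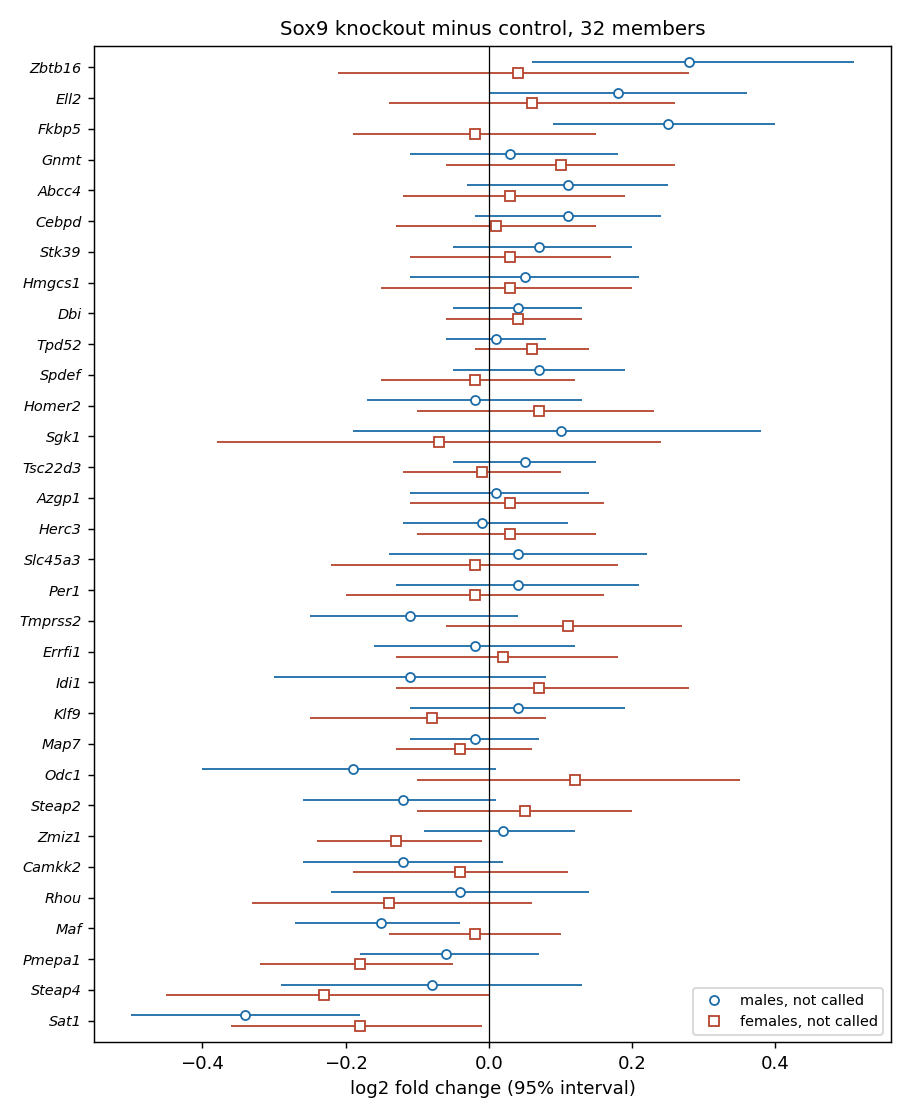
Log2 fold change of Sox9 knockouts over controls with its 95% interval for the 32 genes tested, in males (circles) and females (squares), all open because none passed an adjusted p of 0.05. The intervals span -0.50 to 0.51 in males and -0.45 to 0.35 in females, with Sat1 (-0.34 in males) at the lower end.

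Further genes of the same pathway were taken from lists drawn up beside the 35. Like the 35, they were chosen with earlier results of these data known, so they are not an independent check. Of 58 other genes known to respond to androgen, 47 were tested, and 16 were higher and 3 lower in male knockouts, while 10 were higher and 2 lower in male controls. These are 40.4% and 25.5% of the list, against 7.2% and 6.94% of all genes. Hpgd, which inactivates prostaglandins, was the most different of those higher in males, with 1.46 ± 0.11 (SE) in knockouts (adjusted p = 6.18e-09) and 1.36 ± 0.11 in controls (adjusted p = 2.15e-08). Akap12, a scaffold of protein kinase A, had 0.65 in both genotypes. Ndrg1, a stress- and differentiation-linked gene that androgen is known to induce in prostate cells, was lower in males, with -1.23 ± 0.14 in knockouts (adjusted p = 1.92e-06) and -1.60 ± 0.14 in controls (adjusted p = 5.07e-08). Between knockouts and controls 0 of the 47 passed in males and 0 in females, and 2 had an unadjusted limma p under 0.05 in each sex, where 6.29% of all genes did in males and 5.47% in females.

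**Figure D5:**
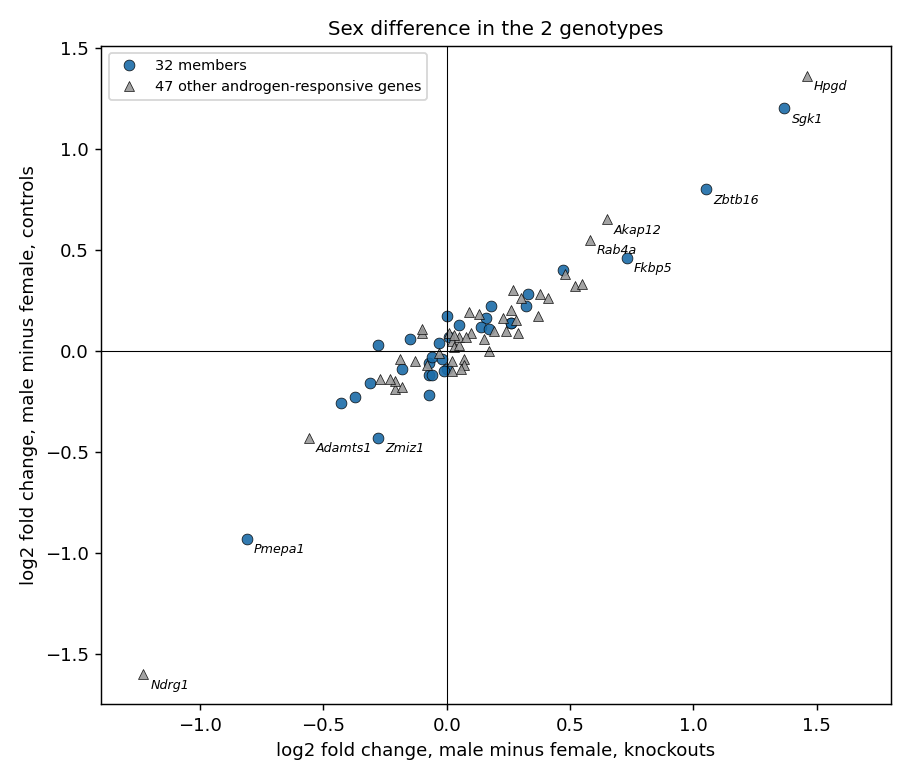
Log2 fold change of males over females in knockouts (horizontal axis) against that in controls (vertical axis) for the 32 genes tested (circles) and the 47 other androgen-responsive genes tested (triangles). Hpgd and Sgk1 lie at the upper right and Ndrg1 and Pmepa1 at the lower left, with the sign shared by 27 of the 32 genes (84.4%), by 40 of the 47 (85.1%) and by 68.2% of all genes tested.

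Glucocorticoid targets outside the 6 shared genes moved in both directions. Of 19 tested, 4 (21.1%) were called between the sexes in each genotype, against 7.2% of all genes in knockouts and 6.94% in controls. Anxa1, the anti-inflammatory annexin, and Hif3a were higher in males in both genotypes, Anxa1 by 0.69 in knockouts and 0.66 in controls and Hif3a by 0.50 and 0.28. Cdkn1a, the cell cycle inhibitor p21, and Ddit4, an inhibitor of mTOR, were lower, Cdkn1a by -0.49 in knockouts and -0.70 in controls and Ddit4 by -0.36 and -0.51. Among 11 steroid receptors and chaperones tested, none was called higher in males, and 2 (18.2%) were called lower in each genotype. Nr3c1, the glucocorticoid receptor, was slightly lower in males, by -0.16 in controls (adjusted p = 0.0394), and had -0.12 in knockouts (adjusted p = 0.17). Esr1, the estrogen receptor alpha, was lower by -0.93 in male knockouts (adjusted p = 1.96e-07) and -0.83 in male controls (adjusted p = 1.14e-06), and Pgr, the progesterone receptor, was lower by -0.49 in male knockouts (adjusted p = 0.0122). Both signals were low beside the brightest background control (6.69). Esr1 averaged 5.81 in males of either genotype, 6.73 in female knockouts and 6.64 in female controls. Pgr averaged 6.10 in male and 6.59 in female knockouts. The transcript of the androgen receptor and the reductases Srd5a1 and Srd5a2, which make dihydrotestosterone, were not analysed here. Of 14 coregulators tested, Foxa1, Grhl2 and Ncoa4 were higher and Foxa2 lower in male knockouts, by 0.22, 0.18, 0.29 and -0.30, and Foxa2 alone passed in controls, with -0.26. The shares of coregulators called were 28.6% in knockouts and 7.14% in controls. None of 14 genes of sterol synthesis passed between the sexes in either genotype (1 in knockouts and 2 in controls had an unadjusted limma p under 0.05). Of 5 genes of polyamine metabolism 1 (20%), the spermine oxidase Smox, was called in knockouts, higher in males by 0.19. Between knockouts and controls 0 genes of these lists passed in males or in females. At an unadjusted limma p under 0.05 there were 4 of the 19 glucocorticoid targets in males and 1 in females, 2 of the 14 coregulators in each sex, and at most 1 gene of each of the other lists, where 6.29% of all genes did in males and 5.47% in females.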

How the data were processed

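RNA of 22 arrays in 4 groups was analysed. The authors deposited 1 table of log2 values for 72688 probe sets, of which 6732 are controls. Their range, 1.59 to 14.23, shows a log2 scale, and for software, background correction and normalization the record is: not given in the sources used here. Values were used as deposited. Names came from the annotation of the array platform, in which 30604 had 1 gene symbol and 2146 several. A probe set of 1 symbol passed if it lay above the 50th percentile of transcript clusters of the array on at least 5 arrays. A gene was kept if any of its probe sets passed (19067 genes), and the passing one of highest mean was tested. All arrays entered 1 model with 4 group means in limma 3.58.1 (R 4.3.3), with empirical Bayes variances and Benjamini-Hochberg adjustment over all 19067 genes, and a gene is called at an adjusted p under 0.05. Fold changes compare the deposited log2 values, which arrays compress at low signal, and precision is limited by how many arrays there were. Figures used matplotlib 3.10.9. Promoter sequences and gene names came from RefSeq tables of GRCm38.p6, while the build of the arrays is not given. The genes and lists were chosen with earlier results of these data known. All 35 genes are accounted for; called genes, the 6 shared genes and the 3 largest changes of each comparison are named, and from other lists the called genes (all up to 5, otherwise those of smallest p). Alternatives changed normalization, filter, probe set rule, variance model, covariates, replicate block and the arrays included.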

Additional observations from a re-analysis of the deposited data

Results flagged for a closer look

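In 9 of 136 groups of arrays (6.62%) 1 array stood farther from the others of its group than Dixon's 95% limit allows, and chance alone gives about 1 in 20, or 6.8 groups. Of the genes shared with glucocorticoid, Tsc22d3 had 6.73 log2 signal in female knockout 2, where the next highest female knockout had 6.54. Per1 had 7.60 in male control 1, where the next lowest had 7.85. Of the other genes, Tmprss2 had 9.30 in male knockout 4, where the next highest had 9.04, and Slc45a3 had 5.70 in female knockout 4, where the next lowest had 6.01. Herc3 had 6.81 in male control 1, where the next highest had 6.59, and Steap4 had 5.86 in female knockout 5, where the next lowest had 5.99. Map7 had 8.10 in male control 4, where the next lowest had 8.21, and Inpp4b had 3.98 in male control 2, where the next lowest had 4.24. Spdef had 7.17 in female control 5, where the next highest had 7.02. None of the 13 genes called between the sexes was among them.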

How the results depend on the processing

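Sgk1, Zbtb16, Fkbp5, Abcc4, Stk39, Pmepa1 and Zmiz1 passed between the sexes in both genotypes under every alternative run, and in knockouts Steap2 did so too, and Maf did wherever it was tested, which the filter at the 75th percentile prevented. For single genes 28 results were followed, namely the calls between the sexes and chosen values of Fkbp5, Zbtb16 and Sat1 for the knockout effect. Of their 637 recomputed values, 577 stayed on their side of the threshold, 51 lost a call, 9 gained one and 0 changed direction. Calls gained by other genes are outside these counts. Errfi1 gained a call in controls under several settings and in knockouts without male knockout 3. Odc1 gained one in knockouts without male knockout 4. The number of the 32 genes called between the sexes was 10 to 14 in knockouts and 8 to 11 in controls when 1 array was left out, and 9 to 13 and 7 to 11 under the other alternatives. Calls lost were those of Dbi, Klf9, Rhou and Sat1 in knockouts and of Dbi, Steap2 and Maf in controls, each under at least 1 setting, and the cause was not tested. In knockouts Klf9 lost its call without male knockout 2, 5 or 6 or female knockout 1, 3, 4 or 5 (0.22 to 0.26), Rhou without male knockout 1, 2, 5 or 6 or female knockout 2, 3 or 5 (0.27 to 0.32), Dbi without male knockout 5 or female knockout 3 or 4 (0.14 to 0.15), and Sat1 without female knockout 1 (-0.27). In controls Dbi lost its call without male control 2, 3 or 6 or female control 2, 4 or 5 (0.14 to 0.16), and Steap2 without male control 2 or female control 3 or 5 (-0.24 to -0.21). Between knockouts and controls the number called was 0 to 1 in males when 1 array was left out and 0 in females. Averaged over the sexes it was 0 to 1 when 1 array was left out, and 1 with quantile normalization and 1 with the filter at the 75th percentile, in each case Sat1.

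Over all genes, leaving out 1 array gave 27 to 49 calls in males between knockouts and controls, 2 to 6 in females and 0 to 2 for the difference of the knockout effect. In males the count was 20 with only the arrays of the compared groups and 23 without male control 6, male knockout 5 and female knockout 5, against 38 as reported, and fewer arrays entered both fits. In females it was 3 with quantile normalization, with median centring, with only the compared groups and without those 3 arrays, against 6. For the difference of the knockout effect it was 0 with quantile normalization, median centring, no filter, the trend and robust options and without those 3 arrays, against 1, and the replicate block gave 2. Leaving out those 3 arrays and the immediate early covariate were chosen after seeing the data.

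With the replicate number as a block, 10 of the 32 genes were called between the sexes in knockouts, where Dbi, Klf9 and Rhou lost their calls (0.15, 0.24 and 0.31), and 10 in controls, where Dbi lost its call (0.15) and Errfi1 gained one. Deviations of arrays with the same number correlated between -0.212 and 0.257. Whether such arrays shared a litter or a batch cannot be told from these values, and the labels do not say. No scaling moved the median of all genes by more than 0.1.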
